A study of Mus musculus with 16 samples.

Results

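A set of 8042 H3K27me3 peaks was present in wild-type (WT) splenic B cells under DMSO and had no counterpart in the DMSO list of the sensor mutant. They were chosen by 3 conditions: the peak lay on chromosomes 1 to 19, was narrower than 10 kb, and shared no base with any mutant DMSO peak. They made up 21.2% of the 37984 WT DMSO peaks on those chromosomes below 10 kb, and 8042 of the 112048 peaks in the 4 lists of the series. The positions of the WT and mutant DMSO peaks chose them, so their width, fold and p-value and every count that rests on the mutant DMSO list are given as a description, with no test. Below they are called WT-only peaks. The other 29942 WT DMSO peaks of the same chromosomes and widths, each overlapped by at least 1 bp of a mutant DMSO peak, are called shared peaks. The mirrored conditions applied to the mutant list gave 24843 mutant-only peaks, or 54.2% of 45818.

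The study mapped H3K27me3 by chromatin immunoprecipitation and sequencing in B cells purified with CD43 microbeads from the spleens of C57BL/6 mice aged 6 to 8 weeks. The cells were WT or carried the genotype Ifih1/Rigi/cGAS triple mutant, which affects 3 cytosolic sensors of foreign or misplaced nucleic acids. They were cultured for 48 hours with DMSO, the solvent control, or with 1 µM GSK343, an inhibitor of the methyltransferase EZH2. All groups, DMSO included, received BAFF and IL-4 at 2 ng/mL each, which are factors of B cell survival and activation. The 4 combinations of genotype and treatment each comprised 2 ChIP samples and 2 inputs, and each gave 1 deposited list of broad peaks. The peak names of each list point to pooled duplicates, and the prefix of the names in both mutant lists, DMSO and GSK343, ends in 1, so whether both mutant replicates entered them is not known. Replicates had no values of their own here, and differences between lists could not be set against the spread between replicates. Read depth is unknown, and the intervals given below are 95% Wilson intervals that cover the counting of peaks only. Of 10 B cell marker genes, among them Cd79a, Ms4a1 and Pax5, 0 carried a peak in any of the 4 lists, while 7 of 10 T cell markers carried a WT DMSO peak.

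H3K27me3 is written by EZH2 as part of Polycomb repressive complex 2, and marks genes that a cell type keeps silent. The mark is strongest over CpG islands, the CG-dense starts of developmental genes, and spreads from there as wide domains, while much lower and more diffuse levels lie over intergenic DNA and silent gene bodies. Broad-peak calling joins neighbouring enriched stretches, so weak and patchy enrichment appears in such lists as narrow peaks of low fold.

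A gene start lay inside a WT-only peak in few cases, and 5 of these starts are shown to make visible what kind of DNA they are. In all, 38 promoter windows of 36 protein-coding genes lay wholly inside a WT-only peak. Each sequence below is the 250 bases before the annotated start from the RefSeq promoter table of GRCm38.p6, written 5′ to 3′ on the gene's strand with every CG dinucleotide in capitals. They were picked after their values were seen, to cover CG contents from 0 to 22, which stops below the highest found. The Dchs2 sequence is chr3:83127277-83127526 on the plus strand, and the Slc13a3 sequence is chr2:165473198-165473447 on the minus strand. The Tusc1 sequence is chr4:93335512-93335761, that of Gstp3 is chr19:4059448-4059697 and that of Gm3238 is chr10:77771326-77771575, all 3 on the minus strand.
Dchs2: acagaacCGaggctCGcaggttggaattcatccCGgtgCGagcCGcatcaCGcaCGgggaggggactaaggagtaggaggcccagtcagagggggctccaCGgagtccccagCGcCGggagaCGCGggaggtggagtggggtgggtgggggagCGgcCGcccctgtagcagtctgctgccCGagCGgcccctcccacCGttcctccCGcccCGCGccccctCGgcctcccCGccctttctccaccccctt
Tusc1: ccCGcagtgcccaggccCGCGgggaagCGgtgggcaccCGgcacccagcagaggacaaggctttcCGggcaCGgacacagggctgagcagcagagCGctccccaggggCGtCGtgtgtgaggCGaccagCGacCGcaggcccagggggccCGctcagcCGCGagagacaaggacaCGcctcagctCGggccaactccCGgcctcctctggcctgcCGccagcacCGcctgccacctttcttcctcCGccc
Slc13a3: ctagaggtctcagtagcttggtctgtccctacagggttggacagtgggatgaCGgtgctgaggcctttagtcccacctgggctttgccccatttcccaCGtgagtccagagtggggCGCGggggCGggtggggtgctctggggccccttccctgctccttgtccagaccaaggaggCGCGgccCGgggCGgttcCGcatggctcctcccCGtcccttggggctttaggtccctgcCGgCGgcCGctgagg
Gstp3: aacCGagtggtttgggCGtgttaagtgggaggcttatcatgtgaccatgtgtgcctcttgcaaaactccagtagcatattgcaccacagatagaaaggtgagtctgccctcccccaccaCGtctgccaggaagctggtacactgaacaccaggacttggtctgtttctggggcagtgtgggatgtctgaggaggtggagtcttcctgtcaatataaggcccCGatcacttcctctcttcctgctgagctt
Gm3238: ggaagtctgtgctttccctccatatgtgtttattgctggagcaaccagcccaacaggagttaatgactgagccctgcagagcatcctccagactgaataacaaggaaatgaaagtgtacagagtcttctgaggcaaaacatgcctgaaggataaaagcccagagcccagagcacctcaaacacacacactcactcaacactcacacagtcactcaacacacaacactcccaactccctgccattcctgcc
The sequences held 22 CG dinucleotides at Dchs2 and at Tusc1, 14 at Slc13a3, 4 at Gstp3 and 0 at Gm3238. The motif searched was CG, which reads the same on both strands, and 93.7% of the 20084 protein-coding promoter windows held at least 1 in these 250 bases. The median number of CG was 10 over all windows and 6.5 over the 38 windows inside WT-only peaks, where the highest was 40, at Myb, a transcription factor of blood progenitors.

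WT-only peaks were narrow and low. Their width ran from 197 to 7108 bp with a median of 464 bp (interquartile range 282 to 748 bp), against a median of 1150 bp in shared peaks and 680 bp in mutant-only peaks. Fold, the authors' ratio of ChIP over background for each peak, ran from 1.88 to 4.44 with a median of 2.37 and a 95th percentile of 2.68. Median fold was 2.51 in shared peaks. In the mutant list, where fold is not on a common scale with WT, the median of mutant-only peaks was 2.25. The −log10 of the p-value, also the authors', had a median of 3.33 in WT-only and 3.79 in shared peaks. A width below 1 kb was seen in 88.9% of WT-only and 44.8% of shared peaks. A fold of 3 was reached by 44 WT-only peaks (0.547%), against 3903 shared peaks (13.04%). Together WT-only peaks covered 4.72 Mb, which was 5.62% of the autosomal length of the WT DMSO list, while shared peaks covered 57.3 Mb (68.3%).

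**Figure D1:**
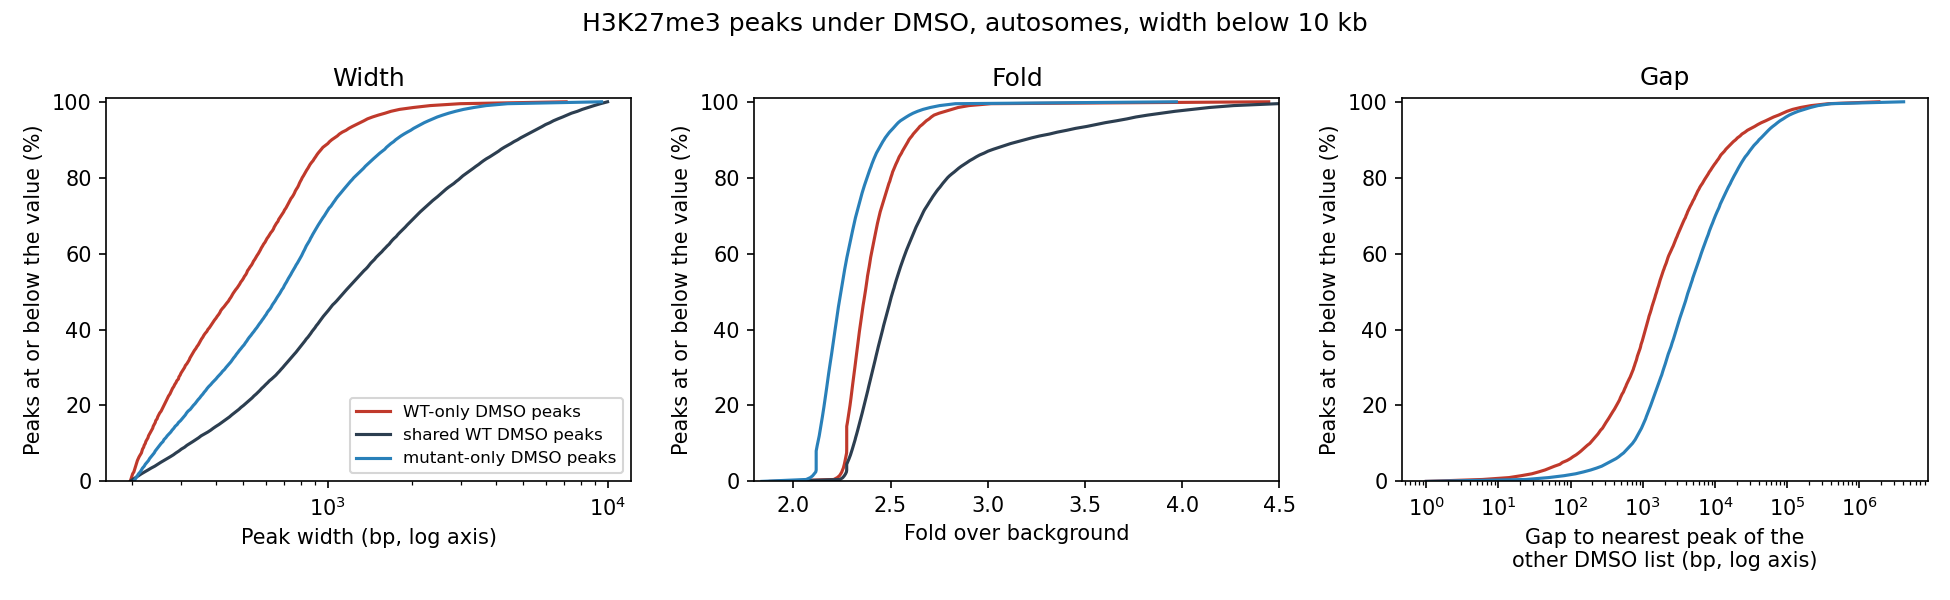
Cumulative share of peaks (%) by width in bp, by fold over background and by gap in bp to the nearest peak of the other DMSO list, for WT-only, shared and mutant-only DMSO peaks; width and gap are on log axes, shared peaks have no gap, and mutant-only fold is not on a common scale with WT fold. WT-only peaks are the narrowest of the 3 kinds, with a median of 464 bp against 1150 bp for shared peaks, and their median gap is 1555 bp against 4269 bp for mutant-only peaks.

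The share of WT DMSO peaks that were WT-only was lower in each bin of greater strength or width. Of peaks with a −log10 p between 3 and 3.5, 35.0% (5108 of 14608) were WT-only. The share was 18.2% between 3.5 and 4, 10.3% between 4 and 5, 4.64% between 5 and 6, and 0.717% (24 of 3348) at 6 and over. By width, 47.5% of peaks below 300 bp were WT-only, against 27.7% from 500 to 1000 bp, 1.91% from 2000 to 4000 bp and 0.496% (20 of 4031) from 4000 to 10000 bp. By chromosome the share ran only from 17.3% on chromosome 4 to 23.7% on chromosome 10. These shares describe the lists that the selection itself used. A narrow peak offers fewer bases to overlap, and the part this had in the shares was not tested.

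**Figure D2:**
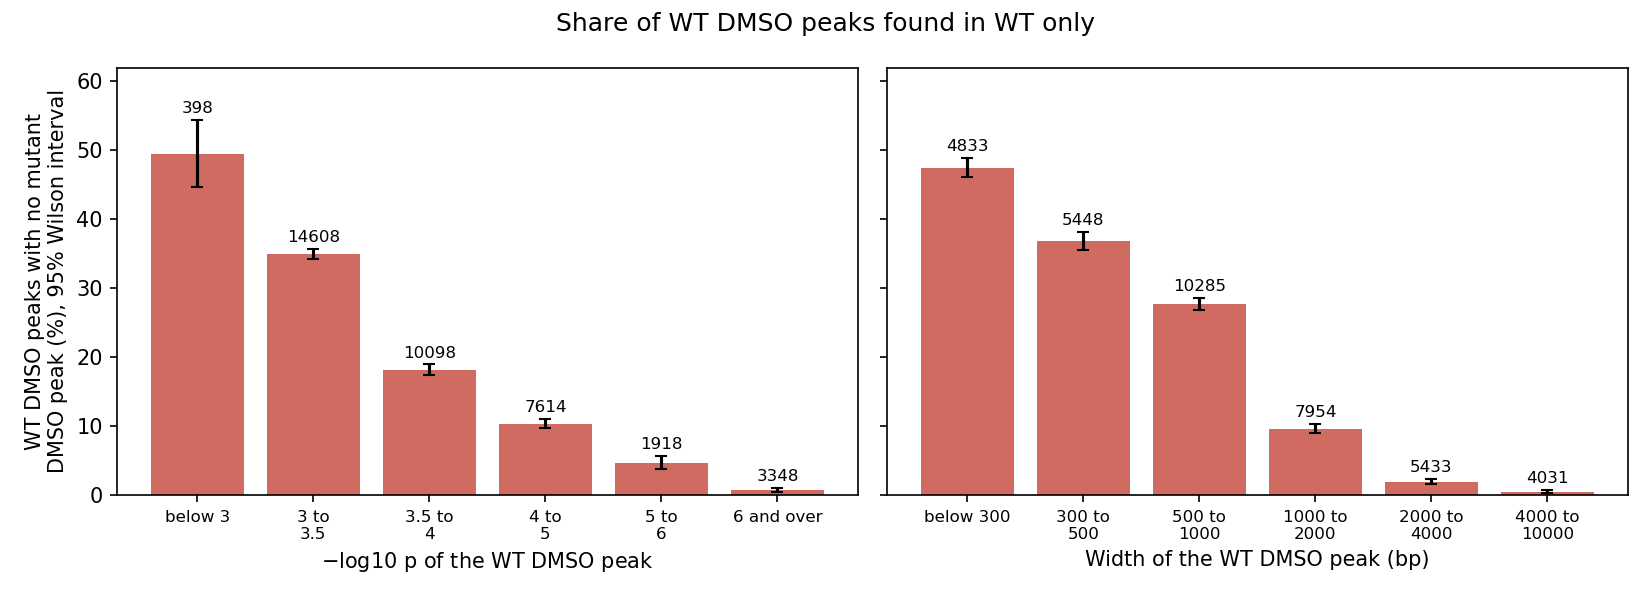
Share of WT DMSO peaks that are WT-only (%), by −log10 p (left) and by width in bp (right), with 95% Wilson intervals as error bars and the number of WT DMSO peaks in each bin above the bar. The bars fall from 49.5% in the bin of largest p-values to 0.717% in that of the smallest, and from 47.5% to 0.496% by width.

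In the lists as deposited, most WT-only peaks lay beside a mutant DMSO peak. The gap to the nearest mutant DMSO peak had a median of 1555 bp (interquartile range 580 to 5285 bp). A mutant DMSO peak lay within 3 kb of 5205 WT-only peaks, or 64.7% (63.7 to 65.8%), and on both sides within 3 kb of 1958. When every list was limited to peaks passing a q-value of 0.01, the share was 31.7%, no longer most. Of the bases between mutant DMSO peaks, 7.98% lay within 3 kb of one. The share within 200 bp was 10.8%, where 0.855% of those bases lay. In 42.5% of the 5205 cases the nearest mutant peak was itself overlapped by another WT DMSO peak, and in 4.59% it was 10 kb or wider. Mutant-only peaks lay within 3 kb of a WT DMSO peak in 40.8% of cases. At the other end, 1309 WT-only peaks (16.3%) lay over 10 kb and 201 (2.499%) over 100 kb from any mutant DMSO peak.

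The named peaks on either side of the overlap limit had folds and widths of the same order. At a gap of 0 bp, where the WT peak ended at the base before a mutant peak began or started at the base after, lay chr6:83224672-83225109 in Slc4a5 (438 bp, fold 2.70), chr5:111755829-111756224 in the lncRNA E130006D01Rik (396 bp, fold 2.57) and chr7:46414571-46415669 in Kcnc1 (1099 bp, fold 2.5). Overlapped by a single mutant base, and so not taken, were chr2:101836774-101837004 (231 bp, fold 2.60), chr15:10978601-10978966 (366 bp, fold 2.56) and chr3:87131248-87131925 (678 bp, fold 2.33). There were 63 WT-only peaks with a gap of at most 10 bp and 62 shared peaks overlapped by at most 10 bp. Above the width limit, 15 of 1249 WT DMSO peaks of 10 kb or wider had no mutant DMSO peak.

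The numbering of the mutant list bears on some of these places. The authors' peaks are numbered along the genome, the deposited files are named as having peaks on a blacklist taken out, and 1402 numbers are skipped in 475 intervals between mutant DMSO peaks on the autosomes. Of the WT-only peaks, 294 (3.66%, 3.27 to 4.09%) lay in such an interval, which held 7.71% of the bases between mutant peaks. The share differed by kind of peak: 14 of the 20 WT-only peaks of at least 4 kb lay there (70.0%), against 280 of 8022 narrower ones (3.49%). The 15 wider WT DMSO peaks without a mutant peak all lay there too, with 1 to 11 numbers skipped, and all 15 were overlapped by peaks of both GSK343 lists. Genes of development under them were Zic5 and Zic2 (55.5 kb, fold 3.99), Yap1 (40.9 kb, fold 3.49) and Rfx4 (17.5 kb, fold 4.16). Gdnf (14.7 kb, fold 4.17) and Pou5f1 (11.1 kb, fold 3.44) were further such genes. Others of the 15 lay over genes such as Nrbp2, Cabp2, Cgn and Dock3, or over no annotated gene. Whether a mutant peak had been called and removed at these places was not tested.

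The GSK343 lists took no part in the selection and show how WT-only peaks stood under EZH2 inhibition. A WT GSK343 peak overlapped 79 WT-only peaks, or 0.982% (0.789 to 1.22%), against 6431 shared peaks, or 21.5% (21.0 to 21.9%); over all WT DMSO peaks of these chromosomes and widths it was 17.1%. A mutant GSK343 peak overlapped 25 WT-only peaks, or 0.311% (0.211 to 0.459%), against 17.5% of shared peaks and 13.9% of all. Mutant-only peaks gave 0.616% for the WT and 0.302% for the mutant GSK343 list. Both GSK343 lists overlapped 10 WT-only peaks, WT GSK343 alone 69, mutant GSK343 alone 15, and neither 7948 (98.8%). A WT-only peak that was not overlapped lay a median of 33657 bp from the nearest WT GSK343 peak, against 17740 bp for shared peaks.

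The shares were also compared within bins of strength. At a −log10 p of 4 to 5, a WT GSK343 peak overlapped 16 of 788 WT-only peaks (2.03%) and 1460 of 6826 shared peaks (21.4%). At 5 to 6 the shares were 6.74% (6 of 89) and 53.0% (970 of 1829). At 6 and over they were 50% (12 of 24, interval 31.4 to 68.6%) and 92.7% (3080 of 3324). For the mutant GSK343 list at 6 and over they were 20.8% and 92.2%. This top bin has no upper end and is not matched, with a median fold of 3.33 in WT-only and 3.599 in shared peaks. Each group had 1 list, so the intervals do not test the difference between the kinds. Shared peaks were by selection already found in a second list, and the share of the difference this accounts for was not tested. Width differs between the kinds within a bin, and the share it accounts for was not tested. Skipped mutant numbers moved with the overlap: 22 of the 79 peaks overlapped in WT GSK343 (27.8%), 15 of the 25 overlapped in mutant GSK343 (60%) and 10 of the 10 overlapped in both lay where numbers are skipped, against 267 of 7948 overlapped in neither (3.36%). Without such places the shares were 0.736% for WT and 0.129% for mutant GSK343.

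**Figure D3:**
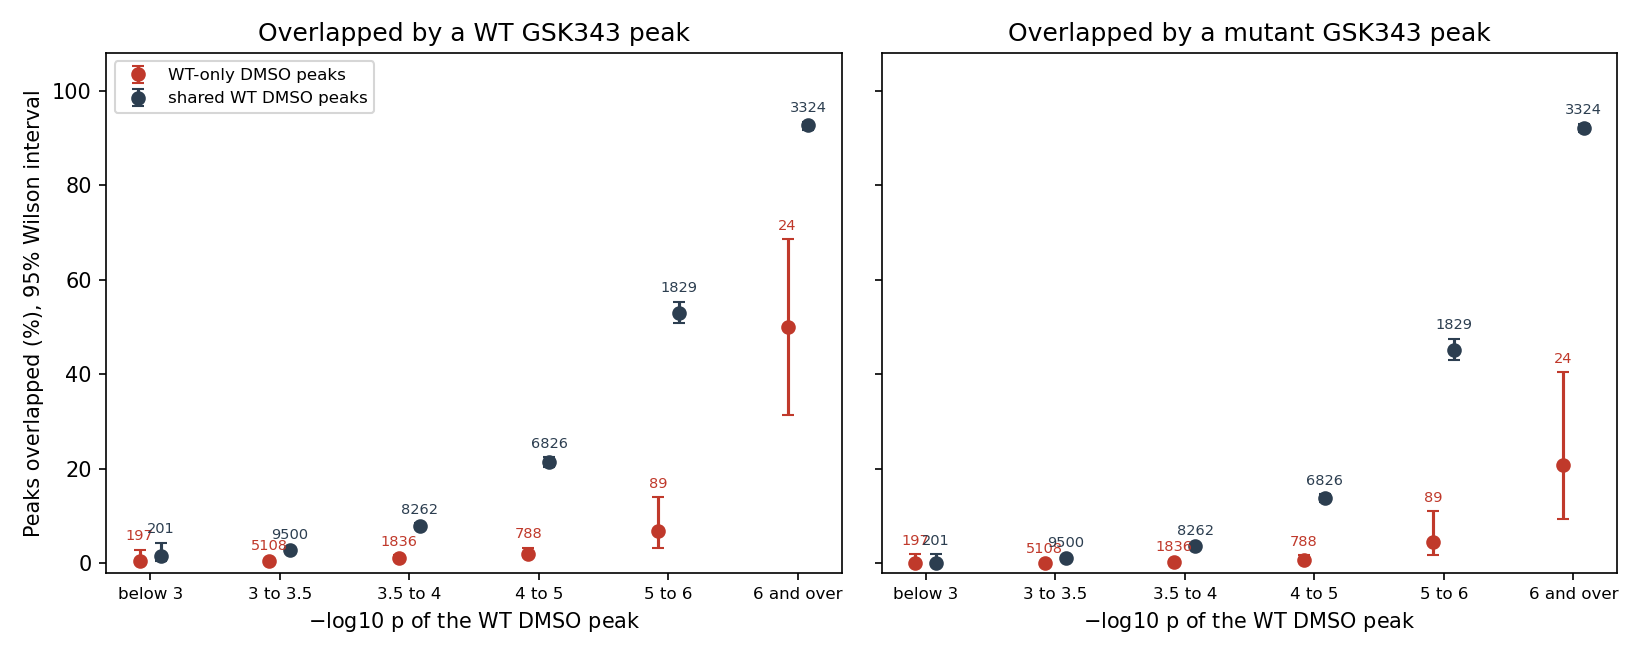
Share of peaks (%) overlapped by a WT GSK343 peak (left) or a mutant GSK343 peak (right), by the −log10 p of the WT DMSO peak, for WT-only and shared peaks, with 95% Wilson intervals as error bars and the number of peaks above each point. WT-only points lie below shared points in each bin from 3 upwards, at 50% against 92.7% in the top bin of the left panel.

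The WT-only peak of highest fold lay outside any gene, at chr18:12158622-12160122, 1.25 kb from Riok3, which encodes an atypical protein kinase. It was 1501 bp wide with a fold of 4.44 and a −log10 p of 14.01, and 81.3 kb from the nearest mutant DMSO peak. A WT GSK343 peak of fold 2.73 covered 90.9% of it, and no mutant GSK343 peak touched it. A neighbouring WT-only peak, chr18:12161012-12161949, had a fold of 3.46 and was covered by WT GSK343 over 65.2% of its bases, again with no mutant GSK343 peak. The pair thus stood in both WT lists and in neither mutant list, with no number skipped between the flanking mutant DMSO peaks. The numbering of the mutant GSK343 list was not examined. The −log10 p of the neighbour was 10.7, the highest of the 4 WT-only peaks with a fold between 3.4 and 3.5. The median of the 4, with the neighbour included, was 7.68.

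A further 3 of the 10 peaks of highest fold stood in every list but mutant DMSO, and 1 mutant number was skipped at each. The peak chr3:83125550-83131114 covered most of Gm10710 and the start of Dchs2, a gene of the protocadherin family, with a fold of 4.12 over 5565 bp. WT GSK343 covered 65.1% and mutant GSK343 55.0% of it, at peak folds of 3.54 and 3.38. The peak chr17:36140635-36147405 over Gm10499 and Gm8909 had a fold of 3.93 over 6771 bp, with 73.0% and 51.7% covered. The peak chr16:4592196-4598047 in Glis2, which encodes a zinc finger transcription factor, had a fold of 3.54 over 5852 bp, with 47.7% and 38.2% covered.

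The other 5 of the 10 were, with 1 exception, short and without a GSK343 peak in either genotype. At chr1:136364570-136365048, 18.5 kb from Camsap2, a peak of 479 bp had a fold of 3.61. In Arhgap24, a GTPase-activating protein, a peak of 465 bp with a fold of 3.49 (chr5:102405685-102406149) lay 1 bp from a mutant DMSO peak. Peaks of 253 bp (chr18:38107294-38107546, fold 3.47) and 287 bp (chr14:104027716-104028002, in the lncRNA Gm41238, fold 3.39) lay 9154 bp and 162 bp from one. The exception was chr14:15824744-15826680, a peak of 1937 bp with a fold of 3.47, of which a WT GSK343 peak of fold 3.19 covered 25.3%.

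Of the 5 widest WT-only peaks, 4 lay where mutant numbers are skipped and were overlapped in both GSK343 lists. The widest, chr19:45100641-45107748 in the lncRNA Gm35867, measured 7108 bp with a fold of 3.31, and 8 mutant numbers are skipped there. The next, chr2:165470045-165476885, lay over the start of Slc13a3, a sodium-coupled dicarboxylate transporter. It measured 6841 bp with a fold of 3.18, and 7 numbers are skipped. The peaks at Gm10499 and Glis2 were also among these 5. The fifth, chr15:31166266-31171855 outside any gene, measured 5590 bp with a fold of 3.17 and lay 43.1 kb from a mutant peak with no number skipped. WT GSK343 covered 7.87% of it and mutant GSK343 none.

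**Figure D4:**
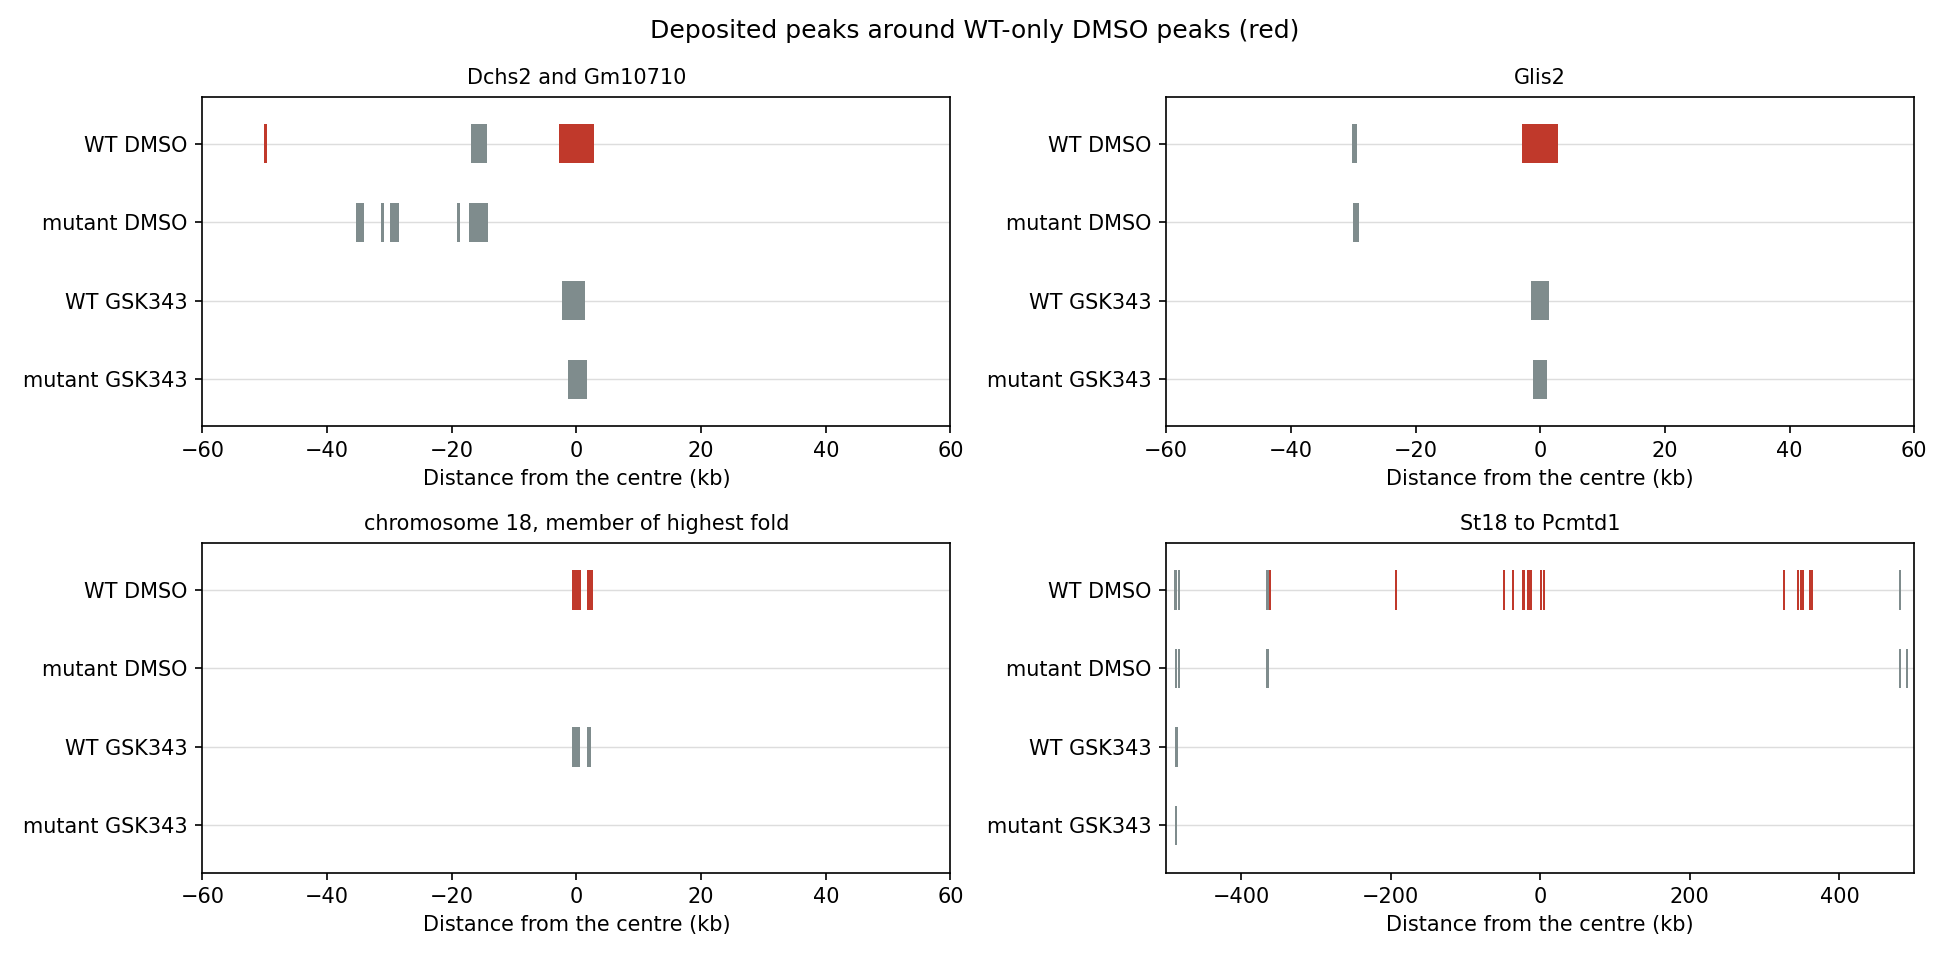
Peaks of the 4 lists by distance in kb from the centre of the Dchs2 and Gm10710 peak, the Glis2 peak, the chromosome 18 peak of highest fold and the St18 to Pcmtd1 stretch; bars are peaks, WT-only ones in red, and thin peaks are drawn at a minimum width. At Dchs2 and Glis2 the peak is present in both GSK343 lists, and at the chromosome 18 pair in WT GSK343 only. The panel named St18 to Pcmtd1 shows a run of 15 red peaks that ends past Pcmtd1, with no GSK343 peak among them.

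Among the 201 WT-only peaks over 100 kb from a mutant DMSO peak, the highest folds were modest. A peak of 250 bp in F13a1, the A chain of coagulation factor XIII, had a fold of 3.29 (chr13:36978605-36978854, 135.6 kb away). A peak of 257 bp at Rab42, a small GTPase, had a fold of 2.93 (chr4:132302866-132303122). The start of St7 lay in a peak of 5197 bp with a fold of 2.92 (chr6:17691879-17697075, 100.1 kb away), of which WT GSK343 covered 35.8%, at a fold of 3.08, and mutant GSK343 none. A peak of 897 bp past Pcmtd1, 97.55 kb from that gene, had a fold of 2.83 (chr1:7271179-7272075). A peak of 2199 bp beside Fcgr1 also had a fold of 2.83 (chr3:96297382-96299580), in an interval where 11 mutant numbers are skipped.

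By annotation, the shares of WT-only peaks lay closer to those of mutant-only than of shared peaks. They lay over a protein-coding gene body in 37.8% of cases (36.8 to 38.9%), against 44.4% of shared and 37.4% of mutant-only peaks. Over no annotated gene lay 49.4%, against 43.6% and 50.3%. Over 100 kb from any protein-coding gene body lay 622, or 7.73%, against 4.53% and 8.19%. They included a protein-coding gene start in 80 of 7798 cases, or 1.03% (0.825 to 1.27%), against 9.05% of shared peaks and 0.765% of mutant-only peaks; chromosome 18 is not in the table of gene starts. The WT-only share was 1.84% with a fold of at least 2.5, 2.35% for lists limited to a q-value of 0.01 and 3.11% for peaks of at least 1000 bp, and shared peaks are wider (median 1150 bp against 464 bp).

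The promoters that WT-only peaks touched were poor in CG. Of 111 such protein-coding promoter windows of 300 bases, 21 were CpG-rich, or 18.9% (12.7 to 27.2%), taken as a GC content of at least 50% and at least 0.6 of the CG expected from base composition. The share was 46.5% of all 20084 windows, 48.5% of those touched by shared peaks, 12.1% of those touched by mutant-only peaks, and 60.6% of those touched by WT DMSO peaks of 10 kb or wider. The median number of CG was 7 in WT-only, 16 in shared and 14 in all windows. Of the sequences shown, those of Dchs2, Tusc1 and Slc13a3 belong to CpG-rich windows, and those of Gstp3 and Gm3238 do not. Of the 36 genes whose promoter lay wholly inside a WT-only peak, 21 had no mutant DMSO peak on the gene body, and 9 lay where mutant numbers are skipped.

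A WT-only peak overlapped 1883 of 20661 protein-coding genes, or 9.11%. These were long genes, with a median length of 56.2 kb against 17.5 kb for all. Of the 1883, 1675 carried a mutant DMSO peak elsewhere on the body, and 208 genes (1.01% of all) had a WT-only peak and no mutant DMSO peak. The 208 had a median length of 16.9 kb, and 16 of them (7.69%) carried a WT GSK343 peak and 10 (4.81%) a mutant GSK343 peak, against 22.2% and 20.9% of all protein-coding genes. Exactly 1 WT-only peak lay on 1250 genes, and 5 or more on 74.

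The 10 genes with most WT-only peaks ran from 52.8 kb (Arhgap8) to 1201 kb (Prkg1) in length. Ncald, the neuronal calcium sensor neurocalcin delta, carried 14 along 426 kb, of 17 WT DMSO peaks in all, with folds of 2.31 to 2.59 and widths of 197 to 1845 bp. The mutant DMSO list had 7 peaks on Ncald, which by the selection lie elsewhere than those 14. Thsd4 carried 11, and Arhgap8, Cacna2d2 (a calcium channel subunit), Iqch and Prkg1 (a cGMP-dependent kinase) 9 each. Itga11 (an integrin subunit), Nfasc (neurofascin), Dscaml1 and Hivep3 carried 8 each. In Arhgap8, 6 of the 9 lay where mutant numbers are skipped, and in the other 9 genes 0 did. All 10 genes also had mutant DMSO peaks, from 7 at Ncald to 42 at Thsd4.

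Short genes gave the highest covered share among those without a mutant DMSO peak. WT-only peaks covered Gm10499, Gm3238 and Gstp3 in full, and Gm10710 over 93.1%. Gstp3, a glutathione S-transferase, lay in a peak of 5459 bp with a fold of 3.09, and 2 mutant numbers are skipped there. Scgb1c1 (a secretoglobin) was covered over 88.2%, 4930571K23Rik over 87.9%, Olfr552 (an olfactory receptor) over 57.5%, Ccdc159 over 50.4% and Ttc24 over 46.8%. Tusc1 was covered over 51.2% by a peak of 1125 bp with a fold of 2.5, which lay 1223980 bp from the nearest mutant DMSO peak. Of these 10 genes, Gm10499, Gm10710, Gstp3, Ccdc159 and Ttc24 lay where mutant numbers are skipped and were also marked in both GSK343 lists. The other 5 were at skipped numbers in no case and were in neither GSK343 list.

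Ifnb1, Ifna12 and Fcgr1 also had a WT-only peak and no mutant DMSO peak, and were picked by hand from the 208 after their values were seen. Ifnb1, which encodes interferon beta, a main product of signalling from the mutated sensors, was covered over 43.6% by a WT-only peak of 343 bp with a fold of 2.43 (chr4:88522459-88522801). Its −log10 p was 3.53, between the median (3.33) and the upper quartile (3.64) of WT-only peaks, and the nearest mutant DMSO peak lay 22.3 kb away. Ifna12, an interferon alpha gene, was covered over 30.5% by a peak of 243 bp with a fold of 2.35. The type I interferon cluster of 358 kb around them held 46 DMSO peaks in each genotype, of which 6 in WT were WT-only, or 13.04%, below the 21.2% of all WT DMSO peaks. The lists covered 24.0% of the cluster in WT DMSO and 35.2% in mutant DMSO, and 14 and 13 of its 17 interferon genes carried a peak. Fcgr1, the high-affinity Fc receptor for IgG, was covered over 33.9% by 2 WT-only peaks, in the interval with 11 skipped mutant numbers.

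Across the gene lists examined, each gene with a WT-only peak also had a mutant DMSO peak on its body. WT-only peaks overlapped 0 of 10 B cell markers, 0 of 10 T cell markers, 0 of 16 nucleic acid sensors and adaptors, 0 of 18 interferon-stimulated genes, 0 of 7 cyclin-dependent kinase inhibitors and 0 of 4 erythroid and stem cell markers, where the share over all protein-coding genes was 9.11%. A WT DMSO peak of any kind lay on 0 B cell markers, 7 T cell markers, 4 sensors and adaptors, 1 interferon-stimulated gene, 4 kinase inhibitors and 3 erythroid and stem cell markers. Among cytokines and their receptors, 7 of 41 carried one: Il5, Il7r, Tgfb3, Il12b, Il12rb1, Il2rb and Il23r. Il5 was covered over 13.5% by WT-only peaks, 26.6% by other WT DMSO peaks and 61.9% by mutant DMSO peaks. In Il7r and Il12b the WT-only peak was the only WT DMSO peak, covering 3.85% and 3.26%, while mutant DMSO peaks covered 1.92% and 5.62%. Elane, the gene of neutrophil elastase, was covered over 30.1% by 1 WT-only peak and over 2.47% by a mutant DMSO peak. Mpo (myeloperoxidase) was the other of 8 myeloid markers with one.

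The lists of the longest genes had the highest shares of genes with a WT-only peak, with no test made. WT-only peaks lay on 17 of 53 neuronal channels and receptors (median length 110 kb), 13 of 40 adhesion and matrix genes (153 kb) and 14 of 48 axon guidance genes (149 kb). Cdh23 carried 7, Col23a1 6, and Sema5b, Ntsr1 and Cacna1a 4 each. Scn2a, a neuronal sodium channel, had 2 WT-only peaks as its only WT DMSO peaks, and 1 mutant DMSO peak. Robo3, an axon guidance receptor, was covered over 9.12% by 2 WT-only peaks. Its other WT DMSO peaks, 1 of them wider than 10 kb, covered 55.0%, and mutant DMSO peaks covered 8.11%. At the wider peak 3 mutant numbers are skipped, and 3 WT GSK343 and 4 mutant GSK343 peaks overlapped it. The short developmental transcription factors (median 6.33 kb) all carried a WT DMSO peak, and 3 of 49 carried a WT-only peak: Wt1, Pax8 and Pax2. Wnt genes gave 6 of 46, FGF, BMP, Hedgehog and Notch genes 4 of 42, and chemokines and their receptors 2 of 35. Prdm1 and Zbtb20 gave 2 of 15 plasma cell and germinal centre regulators, and Cbx2 and Cbx7 2 of 19 Polycomb genes. For these counts of all genes in a list, the share over all protein-coding genes was 9.11% (1883 of 20661). Of the 6729 protein-coding genes with a WT DMSO peak (32.6% of all), 28.0% had a WT-only peak. Counted in the same way, the share was 35.4% for neuronal channels and receptors, 37.1% for adhesion and matrix genes and 30.4% for axon guidance genes. It was 41.2% for the cytokine list (7 of 17) and 40% for myeloid markers (2 of 5), both lists of shorter genes. Plasma cell and germinal centre regulators (median length 22.3 kb) and Polycomb genes (21.9 kb) gave 33.3% (2 of 6 each). The share was 15.4% for chemokines and their receptors, 13.6% for Wnt genes and 10% for FGF, BMP, Hedgehog and Notch genes. It was 6.12% for the developmental transcription factors and 0% for T cell markers (0 of 7).

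**Figure D5:**
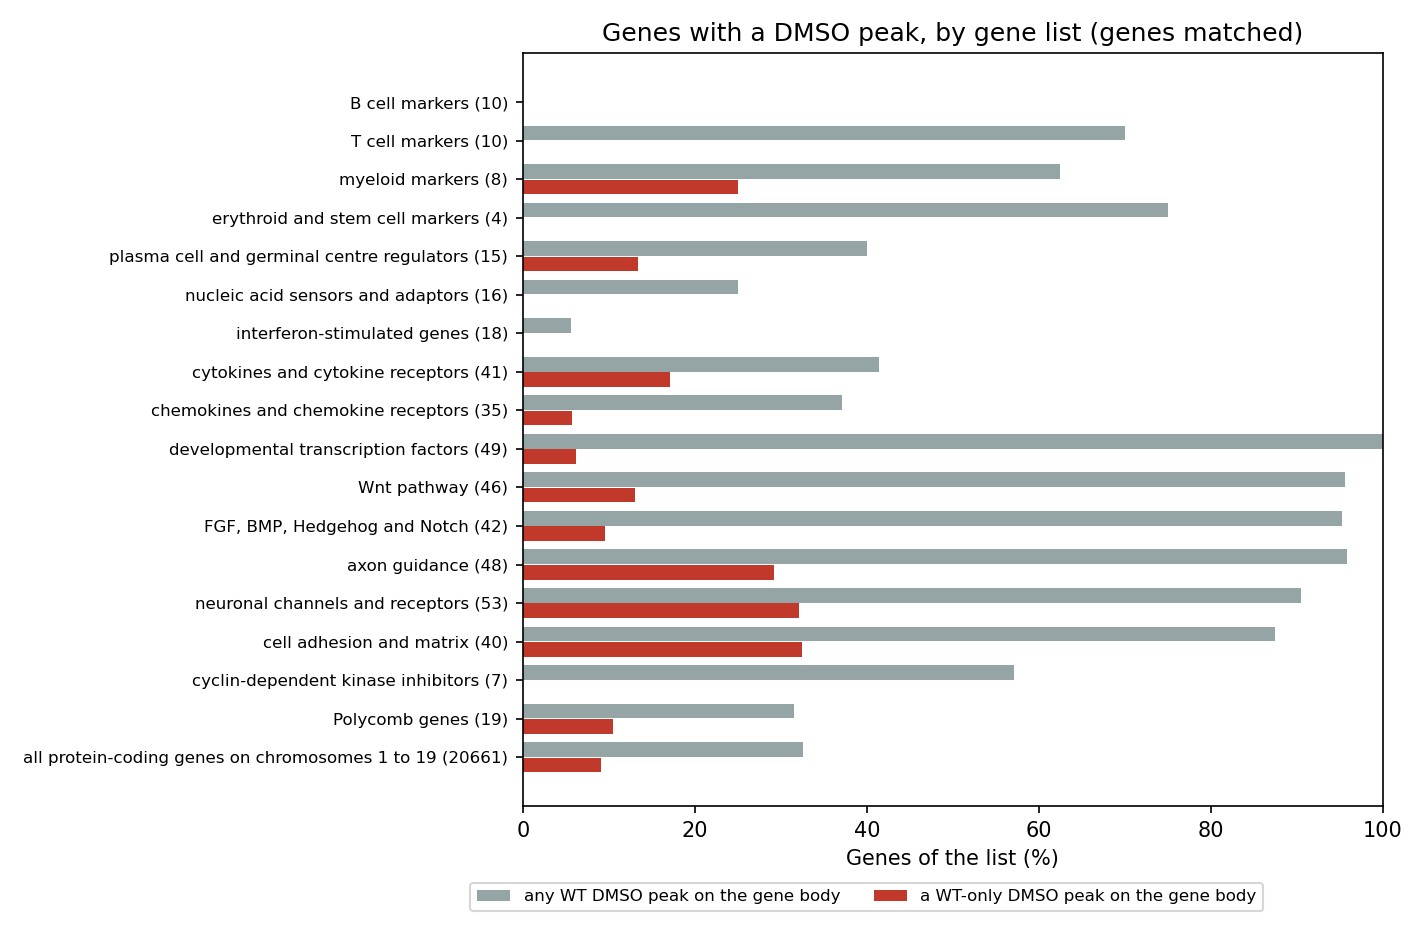
Share of the genes of each list (%) with any WT DMSO peak (grey) or a WT-only DMSO peak (red) on the gene body, with the number of genes matched in brackets. Developmental transcription factors all carry a WT DMSO peak but rarely a WT-only one (6.12%), and the red bars are longest for the lists of long genes.

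Most WT-only peaks stood singly, and a few formed long stretches. A run, counted after values were seen, is a series of neighbouring WT DMSO peaks that are all WT-only with no mutant DMSO peak between them. Of 6830 runs, 5930 were single peaks, and 28 held at least 5 peaks (184 peaks in all). Mutant-only peaks, which are more numerous, gave 787 runs of at least 5. The longest WT-only run, chr1:6565389-7291122, began on St18, a zinc finger transcription factor, and ended past Pcmtd1. It held 15 peaks over 726 kb, none of them on Pcmtd1. Their folds were 2.23 to 2.83 with a median of 2.43, and their widths 240 to 2410 bp. No peak of either GSK343 list lay in the run. No mutant number is skipped there.

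Of the 28 runs of at least 5 peaks, 17 overlapped no protein-coding gene and 11 (39.3%) overlapped at least 1, counted over the whole span. Counted over each peak alone, which is not a like measure, 37.8% of all WT-only peaks lay over a protein-coding gene. The loci that follow were picked after their values were seen. A run of 9 over 181 kb (chr10:22180524-22361113) began on Raet1e and ended past H60b, genes of ligands for the receptor NKG2D. Its folds were 2.17 to 2.87, none of its peaks lay on H60b, and no peak of either GSK343 list lay in it. The immunoglobulin heavy chain locus Igh, which B cells rearrange and transcribe, held 7 WT DMSO peaks over 2751 kb (chr12:113258768-116009954), and all 7 were WT-only. Their folds were 2.23 to 2.81, and 1 mutant DMSO peak, 2 WT GSK343 peaks and 0 mutant GSK343 peaks lay in the locus. The WT-only peak chr12:113334833-113336800 had a −log10 p of 8.48 at a fold of 2.68, against a median of 4.19 for the 424 WT-only peaks with a fold from 2.6 to 2.7, and a WT GSK343 peak overlapped it. At the light chain locus Igk, 45 of 168 WT DMSO peaks below 10 kb were WT-only (26.8%, against 21.2% of all such peaks), 18 of them where mutant numbers are skipped, and the mutant list held 197 peaks there.

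On chromosome 14, a stretch of 317 kb outside protein-coding genes (chr14:15786638-16103756) held 29 WT DMSO peaks, of which 26 were WT-only. Their folds ran from 2.26 to 3.47. WT GSK343 peaks overlapped 5 of the 26 and mutant GSK343 peaks 0, and 7 mutant DMSO peaks lay between them. No mutant number is skipped at the 26. On chromosome 9, a run of 10 WT-only peaks over 68.2 kb (chr9:102425059-102493249) had folds of 2.27 to 2.68. WT GSK343 peaks overlapped 1 of the 10 and mutant GSK343 peaks 0.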

How the data were processed

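H3K27me3 ChIP-seq of 16 samples was represented by 4 lists of broad peaks. Per the submitters' processing notes, the tools were Bowtie2 2.4.2, SAMtools 1.12, MACS2 2.2.7.1, bedtools 2.29.2 and deepTools 3.5.1 with build mm10; their settings are not given in the sources used here. Each peak's fold (a linear ratio over background), −log10 p-value and −log10 q-value are the values deposited by the authors. Peaks were ranked and filtered by fold only within a list; mutant fold is shown but not compared with WT fold.

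Positions are counted from 1. An overlap is at least 1 bp. Genes (20661 protein-coding on chromosomes 1 to 19) and promoter sequences came from RefSeq GRCm38.p6, matched by position and symbol. No genome sequence was used here, so base composition and repeats of the peaks were not analysed. Overlap code gave the expected numbers on 12 of 12 simulated lists and the same numbers as bedtools 2.31.1 in 12 of 12 comparisons. Tables were handled with pandas 2.3.3 and numpy 2.4.6 in Python 3.11.15, intervals came from scipy 1.17.1 and plots from matplotlib 3.10.9.

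The WT-only peaks, gene lists and naming rule were chosen with earlier results of these data known. Named were the 10 peaks of highest fold, the 5 widest, the 5 of highest fold in each GSK343 list and over 100 kb from mutant peaks, the 3 at each side of the overlap limit, the 10 genes with most WT-only peaks, the 10 most covered without a mutant DMSO peak, and list genes without one (0 found). List genes with WT-only peaks, the promoters shown, the interferon genes, Fcgr1, the runs and the immunoglobulin loci were named after their values were seen. Thresholds, overlap limits and width limits were varied.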

Additional observations from a re-analysis of the deposited data

Results flagged for a closer look

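Peaks outside chromosomes 1 to 19 were not among those described. On chromosome X, 20 of 230 WT DMSO peaks had no mutant DMSO peak. On unplaced or unlocalized contigs the number was 4 of 31, and on the mitochondrial genome 1 of 1. These are peaks in sequence that the comparisons did not use.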

How the results depend on the processing

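Of 66 values for 8 results under 9 settings, 31 kept inside the original 95% interval (counts within 1.5 times) and 35 moved. The share over protein-coding gene bodies stayed in each setting that gave it. Except where a setting fixes the change itself, the cause was not tested. No paired analysis was possible because replicates share a single list, which also prevents leaving a replicate out. Read depth is unknown, and its part in which weak peaks are listed was not tested.

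With a q-value of at most 0.01 in every list there were 2451 WT-only peaks, with 2.35% at a gene start, 31.7% within 3 kb of a mutant DMSO peak, a median fold of 2.67 and a median width of 568 bp. With a fold of at least 2.5 there were 1631, with 2.82% in WT GSK343, 1.10% in mutant GSK343, 1.84% at a gene start, a median fold of 2.59 and a median width of 382 bp. With peaks of at least 1000 bp there were 889, with 4.95%, 2.02%, 3.11% and 62.7% for WT GSK343, mutant GSK343, gene starts and 3 kb, a median fold of 2.42 and a width of 1307 bp. Over 1000 bp from mutant peaks there were 5016, 43.4% of them within 3 kb, at a median fold of 2.37. Counting only mutant peaks that cover 50% of a WT peak gave 1.59% in WT GSK343, 0.537% in mutant GSK343, 75.8% within 3 kb, a fold of 2.38 and a width of 577 bp. With no upper width limit, 0.496% were in mutant GSK343. A mutant list of the same number of peaks gave 56.2% within 3 kb, a fold of 2.37 and a width of 492 bp. Requiring that GSK343 peaks cover 50% gave 0.398% and 0.0870%. Without places of skipped mutant numbers, a setting chosen after seeing the data, the values were 0.736%, 0.129% and 66.0% for WT GSK343, mutant GSK343 and 3 kb.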

Other observations

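Among the 208 genes with a WT-only peak and no mutant DMSO peak, a few were named after their values were seen. Mst1, a secreted protein related to hepatocyte growth factor, was covered over 35.1% by a WT-only peak of 1621 bp with a fold of 2.66. Tuba1a, an alpha-tubulin of the developing nervous system, was covered over 34.9% by a WT-only peak of 1277 bp with a fold of 2.63. In both, a WT GSK343 peak overlapped the WT-only peak and no mutant GSK343 peak lay on the gene. Scgb1a1, a secretoglobin of airway cells, was covered over 23.5% by a peak of 1012 bp with a fold of 2.43, and Psmb11, a proteasome subunit of the thymic cortex, over 20.6% by a peak of 877 bp with a fold of 2.32; neither gene carried a GSK343 peak. At Myb, the promoter with 40 CG lay in a WT-only peak of 516 bp, 220.8 kb from the nearest mutant DMSO peak. Its fold of 2.27 and −log10 p of 3.03 were close to the 5th percentiles of WT-only peaks, 2.26 and 3.03.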
